A study of Mus musculus with 6 samples.

Results

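Fatty acids are burned in the liver by mitochondria and peroxisomes, and 42 genes of this route were followed in mice given alcohol. Every gene name on the array was read, and the 42 were found among 27962 names. A gene measured by several probes was represented by the one with the highest mean signal, which applied to 15 of the 42, while 27 had 1 probe. Membership follows the known function of a gene and uses no measured ratio, although the list was drawn up with earlier results of these data known.

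Long-chain fatty acids are first activated to acyl-CoA, carried into mitochondria as carnitine esters and shortened by cycles of beta-oxidation. Part of the electrons of these cycles enter the respiratory chain through electron transfer flavoprotein. Very long, branched and dicarboxylic chains are shortened in peroxisomes, and surplus acetyl-CoA leaves the liver as ketone bodies. Many of these genes are targets of the nuclear receptor PPAR-alpha, which responds to fatty acids, and fat deposition in the liver is a well known companion of alcohol feeding.

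The animals were 129/Sv males that entered the experiment at an age of 6 to 8 weeks. The alcohol group drank its food as a Lieber-DeCarli formula with 4% ethanol, and in the control group maltose dextran stood in for the calories of the alcohol. Both groups had first spent a week on the control formula. After 1, 2 and 4 months, liver RNA of 6 mice per diet was pooled, and the alcohol pool and control pool of a month were hybridized together on 2 arrays, in the Cy5 and Cy3 colors, with exchanged dyes. This gave 6 pools and 6 arrays. The dye-swapped pair repeats the same RNA, and no value carries the variation between mice.

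Each array gave a processed signal for both pools, and the ratio of alcohol over control is given on the log2 scale, where 0 means equal signals and 0.58 a 1.5-fold excess. Precision is limited by how few arrays there are. The share of spots well above background ranged from 73.3% to 90.3% over the 12 channels. The 5 hepatocyte markers found on the array (such as albumin and transthyretin) were all detected, with summed signals of 136958 to 202233 in the pools. By month their log2 ratios had medians of 0.27, -0.10 and -0.01. Single markers varied more, from -0.55 to 0.61 at 2 months and from -0.22 to 0.69 at 4 months, with Tat past 1.5-fold at 2 months and Alb and Tat at 4 months. At 1 month they ran from -0.61 to 0.34, and the lowest, Apoa1, was saturated on 1 array and lay on either side of 0. Their part in the member ratios was not tested. In pooled tissue, fewer cells of a type and less RNA per cell cannot be told apart. The pair of 1 month was on a slide of its own, and the later pairs shared the other slide, so a slide effect cannot be told apart from the step between 1 month and later.

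All 42 genes were measured, and 41 of them were well above background in all 12 channels of the 6 arrays. The exception was Acot2, a mitochondrial thioesterase, whose mean signal of 43.3 was the lowest of the 42. The other end was Acaa1a, a peroxisomal thiolase, at 46636. The median signal of the members was 6676, against 491 over the 37922 probes tested, so these were bright probes on the whole.

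RefSeq start windows of GRCm38.p6 were found for 33 of the 42 genes. Acad9, Cpt1b, Hsd17b4, Decr1, Vnn1, Acaa2, Angptl4, Acat1 and Crat had no entry in that table. The 4 thioesterase genes were neighbors: Acot2, Acot1, Acot4 and Acot3 started in this order on the plus strand of chromosome 12 within 64.3 kb. The stretches of Acot1, Acot4 and Acot3 are shown because these adjacent genes of 1 family had unlike ratios, given further on, whose differences were not tested. The sequences run from 250 bases before to 30 bases after the RefSeq start, 5′ to 3′, and capitals mark the hexamer AGGTCA, the core recognized by many nuclear receptors, here read on the opposite strand as TGACCT.
Acot1, chr12:84009252-84009531, plus strand: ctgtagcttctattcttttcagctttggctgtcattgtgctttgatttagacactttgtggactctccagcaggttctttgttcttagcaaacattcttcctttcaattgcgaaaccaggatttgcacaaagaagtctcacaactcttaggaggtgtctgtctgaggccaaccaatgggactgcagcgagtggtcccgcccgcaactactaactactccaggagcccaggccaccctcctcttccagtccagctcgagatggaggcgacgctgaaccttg
Acot4, chr12:84038129-84038408, plus strand: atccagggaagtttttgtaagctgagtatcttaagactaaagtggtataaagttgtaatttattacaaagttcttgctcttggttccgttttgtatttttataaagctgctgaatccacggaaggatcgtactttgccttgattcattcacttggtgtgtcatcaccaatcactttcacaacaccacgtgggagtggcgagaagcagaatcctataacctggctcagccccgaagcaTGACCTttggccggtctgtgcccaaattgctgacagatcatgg
Acot3, chr12:84051894-84052173, plus strand: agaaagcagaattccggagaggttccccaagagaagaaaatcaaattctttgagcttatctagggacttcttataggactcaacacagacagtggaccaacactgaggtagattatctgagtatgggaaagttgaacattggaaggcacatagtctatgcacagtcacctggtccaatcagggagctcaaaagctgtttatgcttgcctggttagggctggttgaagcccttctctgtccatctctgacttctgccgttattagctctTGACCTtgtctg

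In these 3 stretches the hexamer occurred before the start of Acot4 and just after the start of Acot3, for which the more upstream of 2 RefSeq starts is shown, and not in that of Acot1. Over windows of 250 bases before to 50 bases after a start, both strands read, 7 of the 37 member windows held it (18.9%), compared with 16.3% of the 32851 windows of all genes. The 7 windows belonged to Acadm, Acadvl, Acot3, Acot4, Cpt1a and Slc27a2, with the same hexamer of Acot3 in 2 overlapping windows. Counted by gene, 6 of 33 members held the hexamer, compared with 4900 of 27025 genes. A direct repeat with 1 base between, AGGNCANAGGNCA, the usual form of a PPAR element, was in 0 member windows and in 0.381% of all windows. Such a match is a description of letters, and its absence says nothing on sites elsewhere.

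At 1 month most members stood above control. The median log2 ratio of the 42 genes was 0.20. It was 0.21 with alcohol in Cy5 and 0.25 with alcohol in Cy3, whereas the median over all probes was 0.00. The average was above 0 for 37 genes at 1 month (48.0% of all probes), 30 at 2 months (52.2%) and 28 at 4 months (47.5%). The ratio was above 0 on both arrays for 29 of the 42 genes (22.1% of all probes tested) and below 0 on both for 2 (23.8%), Acox3 and Acsl3. At 2 months 12 genes were above 0 on both arrays (17.5%) and 6 below (17.8%), and at 4 months 11 were above (14.8%) and 2 below (17.5%).

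**Figure D1:**
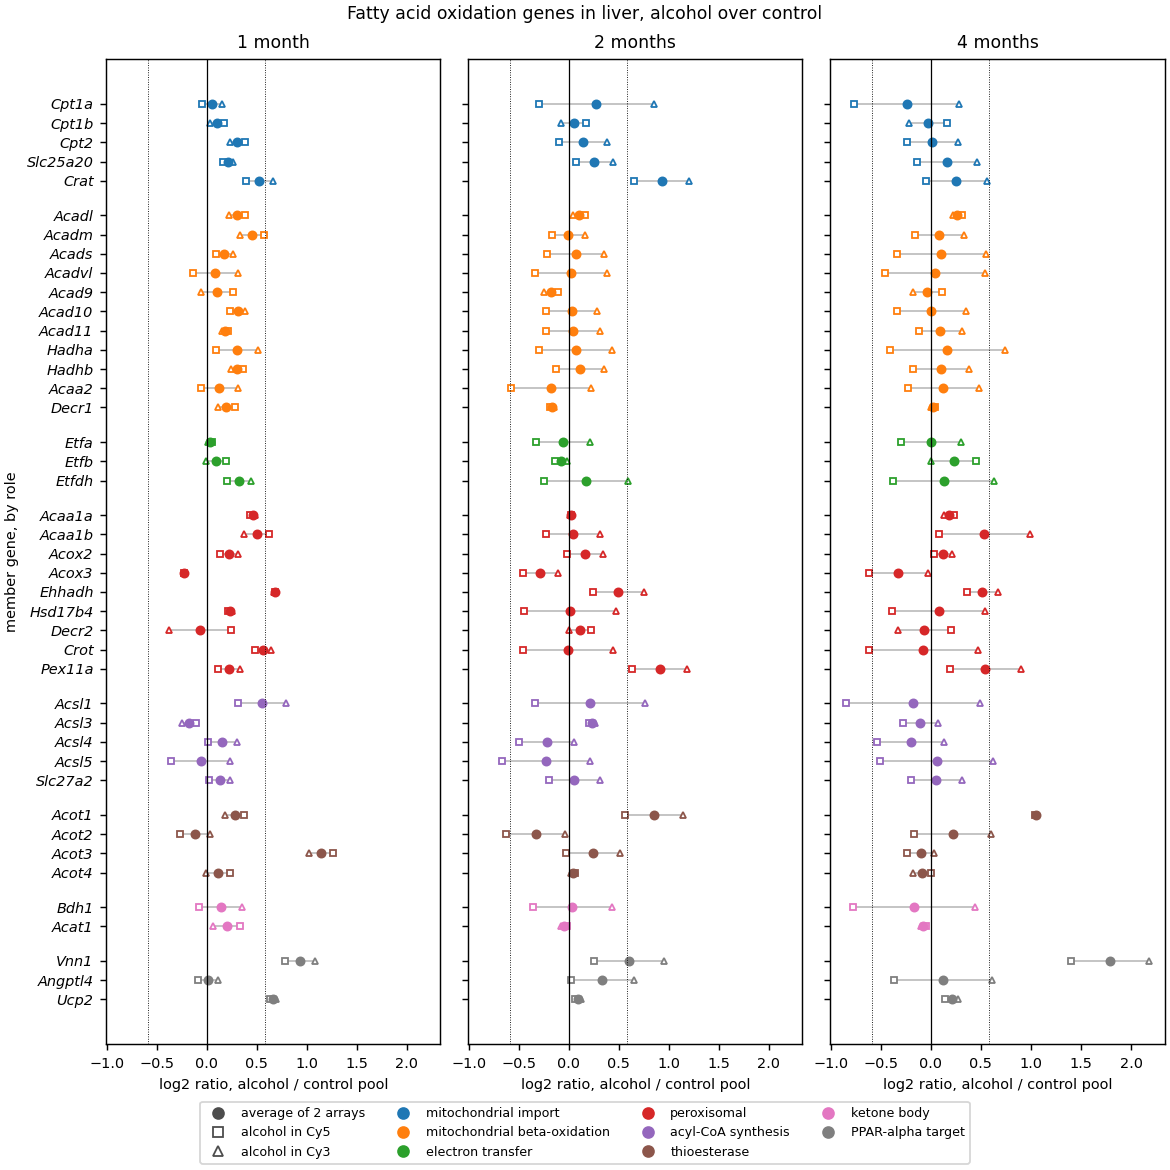
Log2 ratio of alcohol over control pool (horizontal axis) for the 42 genes by role, in 1 panel per month. Filled circles are the average of the 2 arrays, open squares and triangles the single arrays, dotted lines 1.5-fold. At 1 month 37 averages lie right of 0, and at 2 and 4 months the single arrays spread far to both sides.

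At 2 and 4 months the ratios were split between the dyes. The member median at 2 months was 0.05, made of -0.15 with alcohol in Cy5 and 0.31 with alcohol in Cy3. At 4 months it was 0.08, made of -0.17 and 0.34. A ratio below 0 with alcohol in Cy5 and above 0 with alcohol in Cy3 was seen for 7 members at 1 month (24.2% of all probes), 22 at 2 months (31.8%) and 25 at 4 months (32.3%). Among the 21 brighter members 5, 15 and 14 were split in this way at 1, 2 and 4 months, against 2, 7 and 11 of the 21 dimmer ones. For the 27898 probes well above background everywhere, the split share was 26.0%, 35.0% and 35.8%. Each monthly average holds both orientations once, so a dye effect of the same size on both arrays cancels in it, whereas the single-array ratios carry it.

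**Figure D2:**
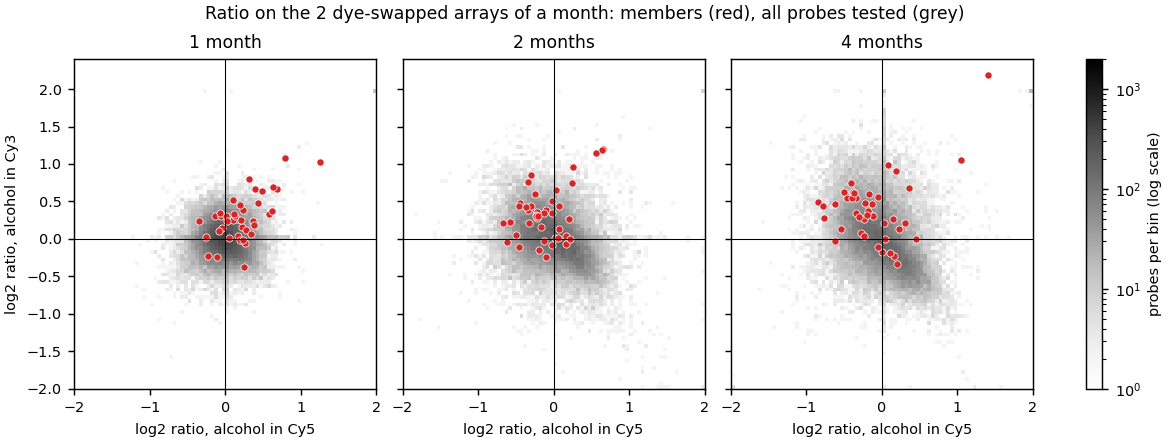
Log2 ratio on the array with alcohol in Cy5 (horizontal) against that with alcohol in Cy3 (vertical), for each month. Red points are the 42 genes and the grey scale counts all probes tested. Points in the upper right quadrant are above control on both arrays (29, 12 and 11 genes), and 22 and 25 genes sit in the upper left quadrant at 2 and 4 months.

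A gene was counted past 1.5-fold in a month when its average was at least that far from control with the same direction on both arrays. Above control, this held for 4 members at 1 month (0.564% of all probes), 4 at 2 months (1.17%) and 2 at 4 months (2.04%). Below control, it held for 0 members in each month (0.630%, 1.31% and 1.46%). Together 7 different genes were past 1.5-fold in some month (3.31% of all probes): Ehhadh, Acot3, Vnn1, Ucp2, Crat, Pex11a and Acot1. With 1 pool per diet these counts are descriptions without a test. On the array with alcohol in Cy3 alone, 7, 9 and 10 members were above 1.5-fold (1.5%, 5.51% and 10.6% of all probes) and 0 below in each month (1.52%, 4.63% and 7.20%). On that with alcohol in Cy5 alone, 5, 2 and 2 were above (1.52%, 5.10% and 5.33%) and 0, 2 and 5 below (1.60%, 5.26% and 5.59%).

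**Figure D3:**
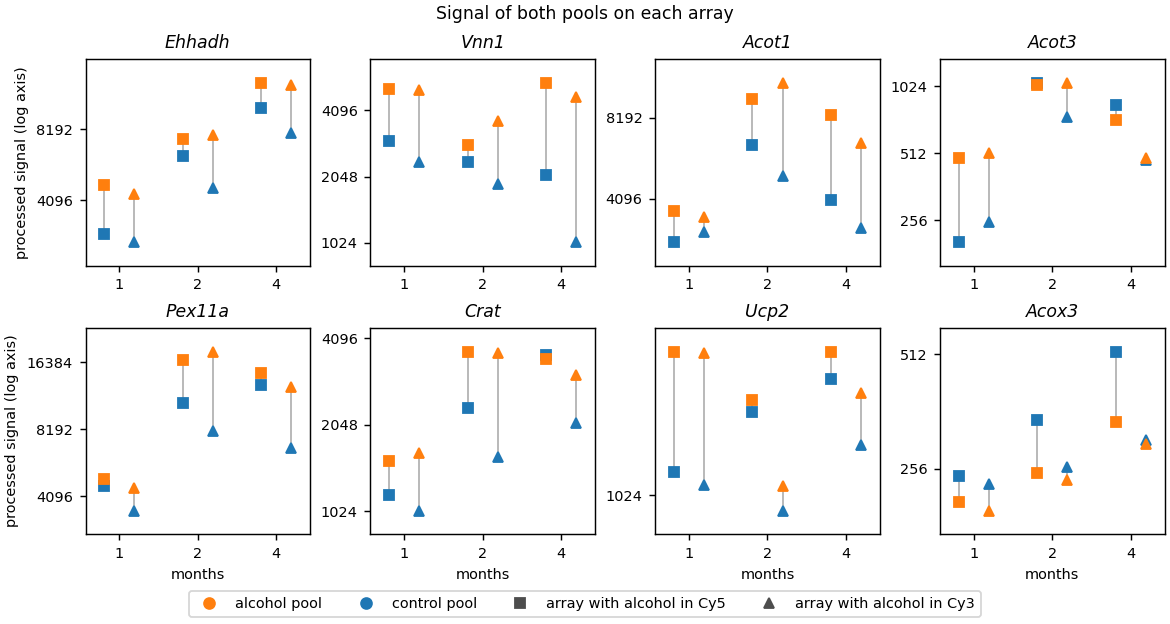
Processed signal (logarithmic vertical axis) of the alcohol pool and the control pool on each of the 6 arrays, for the 7 genes past 1.5-fold in some month and Acox3. A line joins the pools of 1 array. The alcohol pool lies above on all 6 arrays for Ehhadh, Vnn1, Acot1, Pex11a and Ucp2, and below on all 6 for Acox3.

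Ehhadh, the peroxisomal bifunctional enzyme that hydrates and oxidizes enoyl-CoA, was the steadiest of the higher genes. Its signal at 1 month was 4763 in the alcohol pool and 2964 in the control pool with alcohol in Cy5, and 4359 and 2737 with the dyes swapped. The log2 ratio was 0.68 and 0.67 at 1 month, then 0.24 and 0.75 at 2 months and finally 0.36 and 0.68 at 4 months, always in the order Cy5, Cy3. All 6 ratios were above 0, and the monthly averages of 0.68, 0.50 and 0.52 equal 1.60-, 1.41- and 1.43-fold. Over the 3 months the mean was 0.56 ± 0.10 (SD of the monthly averages).

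Pex11a, which encodes a membrane factor of peroxisome division, was also higher on every array. The ratios were 0.12 and 0.34 at 1 month, then 0.63 and 1.18 at 2 months and finally 0.19 and 0.90 at 4 months. At 2 months the alcohol pool gave 16651 and 18233 and the control pool 10729 and 8034, so the pools did not overlap. The averages of 0.23, 0.91 and 0.54 put the highest value at 2 months, a 1.88-fold excess.

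Among the thiolases that close the peroxisomal cycle, Acaa1b had ratios of 0.62 and 0.37 at 1 month, then -0.23 and 0.31 at 2 months and finally 0.08 and 0.99 at 4 months. Its averages were 0.50, 0.04 and 0.53, so the 2-month pools were level while the others favored alcohol. The near-identical Acaa1a averaged 0.46, 0.02 and 0.18, and its other 2 probes gave 0.71 and 0.22 at 1 month. The sequences of these paralogs are close, and a probe of one may detect the other.

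Acox3, a peroxisomal acyl-CoA oxidase of branched substrates, was the 1 member whose brightest probe was below control on all 6 arrays (2.38% of all probes). Its ratios were -0.23 and -0.23 at 1 month, then -0.46 and -0.11 at 2 months and finally -0.62 and -0.03 at 4 months. The averages of -0.23, -0.29 and -0.32 are small, and the probe was dim with a mean signal of 287. Acox2, the oxidase of bile acid side chains, stood at 0.22, 0.16 and 0.12.

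None of the remaining peroxisomal genes was past 1.5-fold by its brightest probe. Crot, which makes carnitine esters of medium chains for export, averaged 0.56 at 1 month with 0.48 and 0.65 on the arrays, but -0.01 and -0.08 later, and its second probe was past 1.5-fold at 1 month (0.62). Hsd17b4, the second bifunctional enzyme, gave 0.23, 0.02 and 0.08. Decr2, a reductase for unsaturated chains, gave -0.07, 0.11 and -0.06. In the peroxisomal group of 9 genes the median log2 ratio was 0.23, 0.04 and 0.12.

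The carnitine steps at the mitochondrial membrane included 1 gene past 1.5-fold. Crat, carnitine acetyltransferase, had ratios of 0.39 and 0.66 at 1 month, then 0.65 and 1.20 at 2 months and finally -0.05 and 0.56 at 4 months. Its signals at 2 months were 3683 and 3646 in the alcohol pool and 2345 and 1582 in the control pool. The averages were 0.53, 0.93 and 0.25, with a 1.90-fold excess at 2 months, and the arrays of 4 months lay on either side of 0.

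Cpt1a, the rate-limiting carnitine palmitoyltransferase of the liver, did not hold a direction. Its ratios were -0.05 and 0.15 at 1 month, then -0.30 and 0.85 at 2 months and finally -0.77 and 0.29 at 4 months. Each month had its 2 arrays on opposite sides of 0, and the averages were 0.05, 0.28 and -0.24. A second probe gave 0.04, 0.17 and -0.21.

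The exchanger Slc25a20, which brings acylcarnitines across the inner membrane, averaged 0.21, 0.25 and 0.16, and the inner enzyme Cpt2 0.30, 0.14 and 0.01. The muscle form Cpt1b averaged 0.10, 0.05 and -0.03. For the 5 import genes the median was 0.21, 0.25 and 0.01.

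Inside the mitochondrion all 11 genes of the beta-oxidation cycle had an average above 0 at 1 month (48.0% of all probes), 8 of them on both arrays (22.1%), with a range of 0.09 to 0.46. At 2 and 4 months 1 and 2 of them were above 0 on both arrays (17.5% and 14.8%). The median of the 11 was 0.19, and later 0.03 and 0.09. None of the 11 passed 1.5-fold in any month. Acadm, medium-chain acyl-CoA dehydrogenase, was the highest at 1 month. Its ratios were 0.58 and 0.34 at 1 month, then -0.17 and 0.16 at 2 months and finally -0.16 and 0.33 at 4 months. The averages of 0.46, 0.00 and 0.08 were far from 0 at 1 month only.

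Hadha, the alpha subunit of the trifunctional protein that carries out the last steps on long chains, had ratios of 0.09 and 0.51, then -0.30 and 0.43, and finally -0.41 and 0.74. The averages were 0.30, 0.07 and 0.16, and 1 of its 2 further probes was at -0.08 at 1 month. Hadhb, the beta subunit, averaged 0.30, 0.11 and 0.10. Acadl, the long-chain dehydrogenase, was the 1 gene of the cycle above 0 on all 6 arrays, with averages of 0.30, 0.10 and 0.26.

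Very-long-chain dehydrogenase Acadvl (0.09, 0.02 and 0.04), short-chain dehydrogenase Acads (0.18, 0.07 and 0.10), Acad10 (0.31, 0.03 and 0.00) and Acad11 (0.18, 0.04 and 0.09) had their highest average at 1 month too. Acad9, which also serves the assembly of respiratory complex I, had ratios of 0.26 and -0.06, -0.11 and -0.24, and 0.11 and -0.18. Its averages of 0.10, -0.18 and -0.04 made it 1 of the 5 lowest genes over the months. The thiolase Acaa2 (0.12, -0.18 and 0.12) and the dienoyl-CoA reductase Decr1 (0.19, -0.17 and 0.02) were below 0 at 2 months as well, Decr1 by its brightest probe. Its second probe gave 0.24, 0.07 and -0.32. A second probe of Acad11 gave -0.19, -0.22 and 0.06, with neither pool well above background at 1 month.

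None of the electron acceptors of the dehydrogenases was past 1.5-fold with both arrays in 1 direction. Etfdh, the oxidoreductase that passes electrons to ubiquinone, averaged 0.32, 0.17 and 0.13, with arrays on either side of 0 at 2 and 4 months. A second probe of Etfdh gave 0.27, 0.20 and 0.09 and was above 0 on all 6 arrays. The flavoprotein subunits Etfa and Etfb lay between -0.08 and 0.23 in all months.

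**Figure D4:**
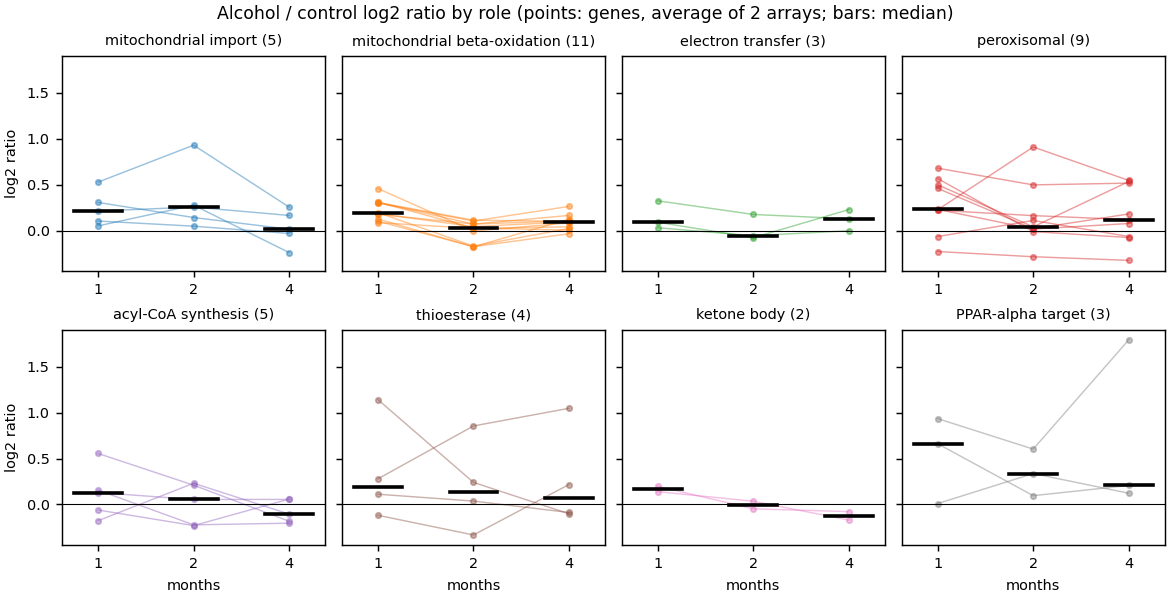
Log2 ratio by month for the genes of each role (number of genes in brackets), with thin lines joining the averages of 1 gene and black bars at the median. The bar is highest at 1 month in all roles except mitochondrial import and electron transfer, and single thioesterases, Crat, Pex11a and Vnn1 leave their group.

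Activation of fatty acids was uneven. Acsl1, the main long-chain acyl-CoA synthetase of liver, had ratios of 0.31 and 0.80 at 1 month, then -0.34 and 0.76 at 2 months and finally -0.85 and 0.49 at 4 months. The averages were 0.55, 0.21 and -0.18, and at 2 and 4 months the 2 arrays lay on opposite sides of 0. Its other 2 probes gave 0.34 and 0.56 at 1 month and 0.10 and -0.13 at 4 months.

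Acsl4, a synthetase that prefers arachidonic acid, had ratios of 0.01 and 0.30, -0.50 and 0.06, and -0.54 and 0.13. Its averages were 0.16, -0.22 and -0.20, and a second probe was at -0.08, -0.31 and -0.24, below 0 on all 6 arrays. Acsl5, which supplies lipid synthesis, had ratios of -0.36 and 0.24, -0.67 and 0.21, and -0.50 and 0.62. All 3 pairs straddled 0, with averages of -0.06, -0.23 and 0.06. Acsl3 was at -0.18, 0.23 and -0.10, and the uptake and activation protein Slc27a2 at 0.13, 0.05 and 0.05.

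The acyl-CoA thioesterases release free fatty acid and CoA, and the values of these genomic neighbors are given side by side. Acot1, the cytosolic enzyme, had ratios of 0.38 and 0.18 at 1 month, then 0.56 and 1.14 at 2 months and finally 1.04 and 1.05 at 4 months. The signals at 4 months were 8353 and 6617 in the alcohol pool and 4056 and 3197 in the control pool. All 6 ratios were above 0, and the averages of 0.28, 0.85 and 1.05 equal 1.21-, 1.81- and 2.06-fold. Within the slide of 2 and 4 months the mean was 0.95. Whether the probes of Acot1 and its relatives detect one another was not checked.

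Acot3, a peroxisomal thioesterase, was highest at the other end of the time course. Its ratios were 1.26 and 1.02 at 1 month, then -0.03 and 0.51 at 2 months and finally -0.24 and 0.03 at 4 months. The alcohol pool of 1 month gave 489 and 511 against 205 and 252 in the control pool, a 2.20-fold excess. The averages of 1.14, 0.24 and -0.10 left the 4-month pools nearly level.

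Acot4, between these genes on the chromosome, was at 0.11, 0.04 and -0.09 by its brightest probe, but a second probe gave 0.55, 0.55 and -0.09. At 1 and 2 months the probes of this gene differed by more than the lower of the 2 ratios, while at 4 months they were level. Acot2 had ratios of -0.26 and 0.03, -0.62 and -0.04, and -0.17 and 0.60, and at 1 month neither pool was well above background. No direction can be read for it.

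Of the ketone body genes, Bdh1, the dehydrogenase that forms beta-hydroxybutyrate, had ratios of -0.07 and 0.35, -0.36 and 0.43, and -0.78 and 0.44. The averages of 0.14, 0.04 and -0.17 hide a dye gap that was larger than any of them. Acat1, the mitochondrial acetoacetyl-CoA thiolase, had ratios of 0.33 and 0.06, -0.02 and -0.08, and -0.05 and -0.10, which average 0.20, -0.05 and -0.08. Both genes were thus within 0.20 of control.

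Vnn1, a pantetheinase that recycles the vitamin part of coenzyme A and is a known PPAR-alpha target, had the highest mean of all members. Its ratios were 0.78 and 1.08 at 1 month, then 0.25 and 0.96 at 2 months and finally 1.40 and 2.18 at 4 months. At 4 months the alcohol pool gave 5463 and 4703 and the control pool 2072 and 1036. The pools did not overlap within any month, and the averages of 0.93, 0.60 and 1.79 equal 1.91-, 1.52- and 3.46-fold.

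Ucp2, an inner membrane carrier of mitochondria, was past 1.5-fold at 1 month alone. Its ratios were 0.63 and 0.69, then 0.07 and 0.13, and last 0.14 and 0.27. The averages were 0.66, 0.10 and 0.21. A second probe gave 0.75, 0.09 and 0.15, whereas the third gave 0.08, 0.00 and 0.02. Angptl4, a secreted inhibitor of lipoprotein lipase, averaged 0.01, 0.34 and 0.12.

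Across the 3 months, 7 members were above 0 on all 6 arrays (1.49% of all probes): Acadl, Acaa1a, Ehhadh, Pex11a, Acot1, Vnn1 and Ucp2. For Acaa1a and Ucp2 this held for the brightest of 3 probes, since the other 2 of Acaa1a were below 0 on 1 and 2 arrays and the dimmest of Ucp2 on 2. Etfdh, not among the 7, was above 0 on all 6 arrays by its dimmer probe alone. The monthly averages were tested with limma against 0, with the 3 months as replicates and Benjamini-Hochberg adjustment over 37922 probes. No member had an adjusted p below 0.05 (0.00% of all probes), and the smallest was 0.599, for Ehhadh (0.56, SE 0.07). At an unadjusted p below 0.05 limma gave 10 members above control (3.54%) and 1 below (4.44%), and the methods' t-test gave 4 in all (5.93%) and 0 after adjustment (0.00%). The 10 were Ehhadh, Vnn1, Acot1, Crat, Pex11a, Slc25a20, Acadl, Acaa1b, Etfdh and Acox2, and the 1 below was Acox3.

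A second limma test took the slope of the ratio on the log2 of the month. It gave 0 members with an adjusted p below 0.05 (0.00%), and the smallest value was 0.633. Unadjusted, 1 slope was positive (4.22%), that of Acot1 at 0.38 per log2 month, and 3 were negative (3.14%), those of Acot3 at -0.62, Acsl1 at -0.37 and Crot at -0.32. The methods' t-test gave 2 unadjusted (5.59%) and 0 adjusted (0.00264%, or 1 probe). These slopes include the change of slide after 1 month.

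The ratios of the 42 genes were partly alike between months, with a Pearson r of 0.41 and a Spearman rho of 0.41 between 1 and 2 months. Between 1 and 4 months these were 0.44 and 0.38, and between 2 and 4 months 0.57 and 0.33, so the pair with the highest r had the lowest rho. The points are genes, which are not independent, and the later months also share a slide.

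Beyond the 42, 53 other genes of the route were listed and 47 were on the array. Their median log2 ratio was 0.08, -0.04 and -0.01. Above 1.5-fold were 6, 5 and 5 of them (0.564%, 1.17% and 2.04% of all probes), and below 0, 1 and 2 (0.630%, 1.31% and 1.46%). The 6 of 1 month include Pdk4, for which only a bound below 1.5-fold can be given in that month. With limma no one of the 47 had an adjusted p below 0.05 against 0, while 8 above (3.54% of all probes) and 5 below (4.44%) had an unadjusted p below 0.05.

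The receptor gene Ppara itself, which encodes PPAR-alpha, averaged 0.10, 0.01 and -0.47, with both arrays of 4 months below 0.

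Of the omega-hydroxylases of the Cyp4a family, textbook PPAR-alpha targets, Cyp4a10 and Cyp4a14 were listed and both were above control in every month. Cyp4a14 had the highest mean of the 47 genes. Its ratios were 2.38 and 2.50 at 1 month, then 1.58 and 2.04 at 2 months and finally 1.25 and 1.08 at 4 months. Cyp4a10 averaged 1.11, 0.67 and 0.68 and was above 0 on all 6 arrays. Cyp4a14 and Cyp4a10 belong to a multigene family whose probes may detect one another.

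Abcd2, a peroxisomal transporter of very long chains, averaged 1.40, 0.89 and 1.70. Cd36, a fatty acid translocase of the plasma membrane, averaged 1.36 at 1 month with 1.35 and 1.36 on the arrays, and 0.25 and 0.34 later. Pdk4, the kinase that turns off pyruvate oxidation, averaged 0.89, 0.86 and 0.84, above 0 on all 6 arrays, and its adjusted p of 0.212 in limma was the smallest of the 47. At 1 month the control pool was not well above background for Pdk4, where the excess was at least 1.20-fold, and the adjusted p uses the measured 0.89 of that month. The limit sets the alcohol mean against the lowest signal well above background, from single channels after loess and quantile scaling.

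Fgf21, a fasting hormone of the liver, averaged -0.17, 1.85 and 0.78. Lower in alcohol were Nudt7, a peroxisomal hydrolase of coenzyme A, at -0.40, -0.90 and -1.08, and Scp2, which encodes a sterol carrier and thiolase, at -0.21, -0.42 and -0.66. Scp2 was below 0 on all 6 arrays, and Nudt7 on 5.

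**Figure D5:**
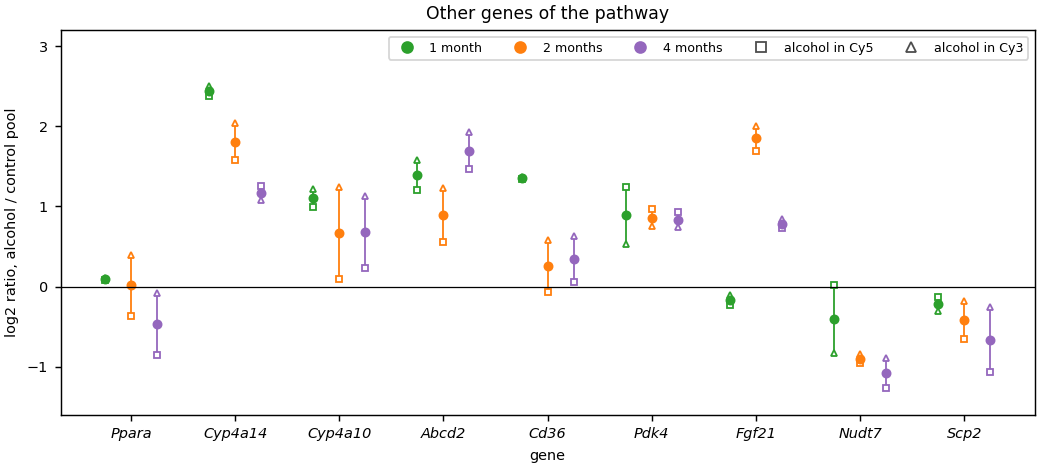
Log2 ratio (vertical axis) of 9 genes of the route outside the 42, 3 colors for the months, open symbols for single arrays and filled circles for their average. Cyp4a14, Cyp4a10, Abcd2 and Pdk4 lie above 0 on all 6 arrays and Scp2 below on all 6, and Cyp4a14 at 1 month is the highest of them.

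Other gene lists were read on the same arrays. Of 8 fasting response genes on the array (such as Igfbp1, Pck1 and Tat), 4, 5 and 8 were above 0 on both arrays at 1, 2 and 4 months (22.1%, 17.5% and 14.8% of all probes), with medians of 0.01, 0.43 and 0.71. At 1 month 3 of the 8 were below 0 on both arrays (23.8%). The summed signal of the 8 genes at 4 months was 273713 in the alcohol pool and 160348 in the control pool. Fgf21, Pdk4 and Ppargc1a are in this list and in that of the route, and Tat is also a hepatocyte marker. The 11 clock genes had medians of -0.09, -0.05 and -0.03 with members on both sides, from Dbp at -0.81 to Npas2 at 0.73 at 4 months. Of the 8 pancreas acinar genes on the array, 0 were above and 4 below 0 on both arrays at 1 month (22.1% and 23.8%), whereas 8 were above at 4 months (14.8%), led by Pnliprp1 at 2.42 and Cpb1 at 2.17, with a summed signal of 50223 against 39781. The 6 macrophage and leukocyte genes had medians of 0.14, -0.05 and 0.05, with Adgre1 at 1.23 at 1 month, and the 5 adipocyte genes 0.03, 0.14 and 0.15. The 5 striated muscle genes had medians of 0.09, -0.04 and 0.10. Every listed gene on the array was well above background in some channel. The part of these lists in the member ratios was not tested.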

How the data were processed

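Pools of liver RNA (6 mice) were compared by diet after 1, 2 and 4 months, each pair on 2 dye-swapped arrays. The authors deposited Agilent Feature Extraction 9.1.1.1 output with processed signal intensity per channel, corrected for background and dye. They also deposited the log10 ratio of Cy5 over Cy3, and its modeled error, a technical score. A deposited table of log10 ratios of the same arrays served as an alternative. Authors' p-values were not used.

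The log2 ratio of alcohol over control was taken from the processed signals of the labeled dyes. It was averaged over spots of a probe and over the dye-swap pair. The 1639 control spots of 45018 were left out, and 0 spots had an outlier flag. Where both channels held a surrogate (3.29% to 10.6% of spots), the ratio was set to 1. Tested were 37922 of 41174 probes, those that some channel of some array measured well above background. Full array values are given for members past 1.5-fold in a month, the 5 highest and 5 lowest by mean, and Cpt1a, Acadm, Hadha, Ehhadh, Acaa1b, Acsl1, Bdh1 and Acat1. Other genes of the route follow the same 1.5-fold rule, with Ppara always named, and some genes under this rule are not reported here. The members, which were listed by function, the other lists and the 1.5-fold threshold were chosen with earlier results of these data known.

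Tests used limma 3.58.1 (R 4.3.3) on 3 monthly ratios, leaving 2 residual degrees of freedom (effect) or 1 (trend) before moderation, and were tested on simulated data. Python 3.11.15 was used with pandas 2.3.3, numpy 2.4.6, matplotlib 3.10.9 and scipy 1.17.1. Start windows came from RefSeq (GRCm38.p6). No probe sequence was used here. The alternatives were normexp (offset 50) with loess, the deposited table, an error-weighted average, median centring, a stricter probe filter, other probe rules, other fold thresholds, single arrays, single dye orientations, leaving out each month, another time scale and a test without moderation.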

Additional observations from a re-analysis of the deposited data

Results flagged for a closer look

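Fgf21, a hepatic hormone of fasting and a PPAR-alpha target outside the 42 genes, had opposite signs in different months. Both arrays of 1 month were below 0 (-0.23 and -0.10) and both of 2 months (1.69 and 2.01) and of 4 months (0.73 and 0.84) were above 0. The averages differed by 2.02 on the log2 scale between 2 and 1 month and by 0.95 between 4 and 1 month. The difference was not tested, since each month has 1 pool per diet, and the slide changes with it. No member of the 42 had both arrays of one month above 0 and both of another below 0 with averages at least 1.5-fold apart.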

How the results depend on the processing

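No paired analysis was possible because the labels carry no replicate numbers that link pools across months. Both pools of a month shared each array, so every ratio is already taken within an array. In none of the alternatives did limma call a member at an adjusted p below 0.05. The member median at 1 month was 0.25 with only the arrays with alcohol in Cy3, and leaving out single arrays gave 0.21 to 0.25 at 1 month, -0.15 to 0.31 at 2 months and -0.17 to 0.34 at 4 months. Within the first slide it was 0.20 and within the second 0.06. Members above 1.5-fold numbered 7, 9 and 10 at 1, 2 and 4 months with only alcohol in Cy3 (1.5%, 5.51% and 10.6% of all probes). With only alcohol in Cy5, 2 were above at 2 months (5.10%), and below were 2 at 2 months (5.26%) and 5 at 4 months (5.59%). Leaving out single arrays gave 5 to 7, 2 to 9 and 2 to 10 above, and 0 to 2 and 0 to 5 below at 2 and 4 months. A 2-fold threshold left 1 gene at 1 month, 0 at 2 months and 2 at 4 months (0.145%, 0.237% and 0.432% of all probes). Of 341 alternative means of the 19 genes with full values, 35 changed sign, and 10 of the 19 genes never did. Means over the months reversed with only alcohol in Cy5 for Acad9 (0.088), Acsl1 (-0.29), Bdh1 (-0.40), Cpt1a (-0.37) and Hadha (-0.20), and with only alcohol in Cy3 for Acat1 (-0.040), Acot2 (0.20), Acsl4 (0.16) and Acsl5 (0.36). Cpt1a was at -0.0019 by its second probe, and Acot2 at 0.0029 with error weights. Leaving out 1 array gave ranges across 0 in 9 genes: Acad9 -0.090 to 0.016, Acat1 -0.022 to 0.070, Acot2 -0.21 to 0.050, Acsl1 -0.029 to 0.42, Acsl4 -0.20 to 0.023, Acsl5 -0.26 to 0.11, Bdh1 -0.20 to 0.20, Cpt1a -0.16 to 0.22 and Hadha -0.013 to 0.37. Leaving out 1 month did so in 5: Acad9 -0.11 to 0.033, Acat1 -0.063 to 0.075, Acot2 -0.22 to 0.050, Bdh1 -0.067 to 0.087 and Cpt1a -0.095 to 0.16. The cause was not tested. Error weights left 3 genes past 1.5-fold at 2 months. With normexp and loess limma called 9 probes and with the stricter filter 6, none a member. Signals near background limit Acot2 alone among the 42.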
